A study of Homo sapiens and Mus musculus with 30 samples.

Results

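Ribosomal RNA (rRNA) 2′-O-methylation was compared between 4 regions of the adult mouse brain: cortex, hippocampus, cerebellum and olfactory bulb. The 4 samples were chosen by their titles, without use of any measured value, and make up 12 of the libraries in a series of 30 samples. Each region had 3 libraries. All mice were wild type, and the labels used here do not state their strain, sex or exact age. The labels describe the libraries as biological triplicates of a brain tissue, and all 12 were made under 1 library number with the same 3 indexes, one index per library of a region. Library 1 of every adult region carries the first index, library 2 the second and library 3 the third. Whether libraries of the same number also share an animal is not stated, so index and animal cannot be told apart. Newborn (P0) wild-type hippocampus, cerebellum and olfactory bulb, with 3 libraries each from another library number, served as a second set of the same regions. The files cover rRNA only and hold no marker genes, so the dissected region of a sample could not be checked against its cells.

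Box C/D small nucleolar RNAs (snoRNAs) guide the methyltransferase fibrillarin to rRNA: a stretch of the snoRNA pairs with the rRNA, and the ribose of 1 nucleotide in the duplex receives a methyl group. Most such sites lie in the functional core of the ribosome and are methylated on nearly every molecule, while a minority are methylated on a fraction of the ribosomes. The neuronal types, glia and myelin of these regions differ widely, and a bulk RNA sample averages over all of them, so a site methylated in fewer cells and a site methylated less in every cell cannot be told apart. In RiboMeth-seq, RNA is broken by alkali and the ends of the fragments are counted. A methylated ribose protects the bond on its 3′ side and leaves a gap in the read ends. The methylation score used here sets the read ends at a nucleotide against a weighted mean of its 6 neighbours on each side, and 1 minus that quotient is the score. A score near 1 stands for nearly full protection and 0 for none.

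Sites are named by rRNA, nucleotide and the number used in human snoRNA target tables, and positions below are those of the mouse rRNA in the files, counted from 1 at the 5′ end. A catalogue of 108 sites was placed on the mouse sequence, of which 42 lie on the small subunit's 18S rRNA, 64 on 28S rRNA and 2 on 5.8S rRNA. Stretches around sites with clear regional values follow, with catalogue sites in capitals, since several of them lie close enough to share neighbours.
18S positions 424 to 448, with Um428 and Gm436: uucgauUccggagaGggagccugag
18S positions 660 to 680, with Am668: ugcugcaguuAaaaagcucgu
18S positions 789 to 811, with Cm797 and Um799: gggcccgaagCgUuuacuuugaa
18S positions 1264 to 1284, with Cm1272: cucacccggcCcggacacgga
28S positions 1672 to 1694, with Am1858 and Cm1868: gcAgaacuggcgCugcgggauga
28S positions 4265 to 4296, with Gm4588, Um4590, Gm4593 and Gm4607: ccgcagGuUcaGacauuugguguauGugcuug
The last stretch holds 3 sites within 6 nucleotides, which bears on the score of Gm4593 below.

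The general level of scores differed between regions before any single site was considered. Over the 107 sites tested, the median score was 0.969, 0.965 and 0.959 in the 3 cortex libraries and 0.973, 0.966 and 0.955 in the hippocampus libraries. It was 0.907, 0.926 and 0.933 in olfactory bulb and 0.821, 0.914 and 0.906 in cerebellum. Cerebellum library 1 thus stood apart from all other libraries, and neither cortex nor hippocampus overlapped cerebellum or olfactory bulb. An exact permutation test over libraries within index, one-sided for a larger spread between regions, gave p = 0.00694 (13824 arrangements, smallest possible 0.00174). Depth ran from 6908967 to 29455549 read ends, with a mean of 24413683 per cortex library and 21316341 per hippocampus library, but 11335068 for olfactory bulb and 10089555 for cerebellum. Library 3 had the fewest read ends of every region. In hippocampus (8108267) and cortex (17174323) it had the lowest median of its region, 0.955 and 0.959. In olfactory bulb (7351499) it had the highest, 0.933, and in cerebellum (6908967) it had 0.906, between the other libraries. The mean score outside the catalogue, a background, was between 0.134 and 0.157. The part of depth or RNA quality in the level was not tested. Because a common shift moves many sites at once, results are given as deposited and after division of the scores of a library by their upper quartile, called scaled below.

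**Figure D1:**
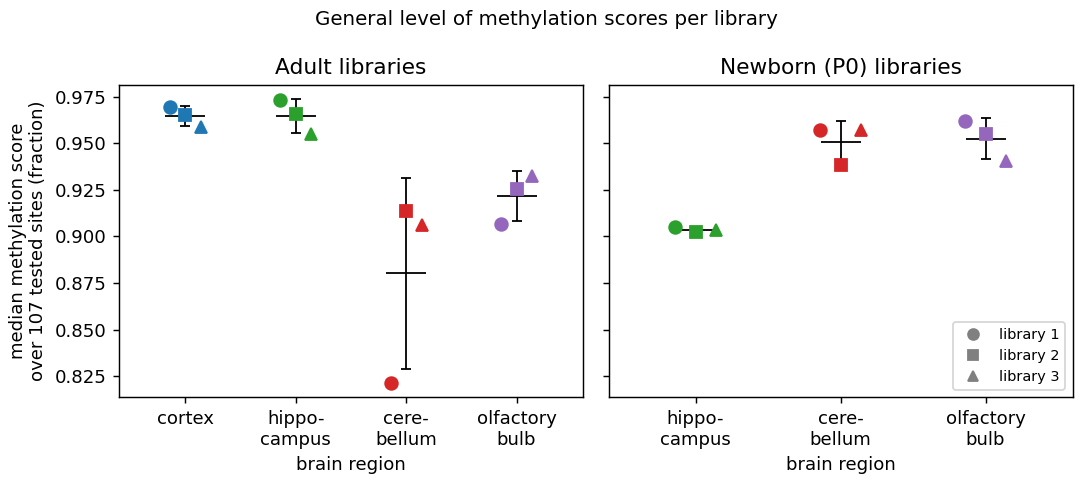
Median methylation score over the 107 tested sites (y axis, fraction) in each library of the adult (left) and newborn (right) regions. Symbols mark library numbers, the horizontal line the mean and the bar the SD over 3 libraries. In newborn hippocampus and cerebellum the library numbers follow another order of indexes than in the adult. The y axis does not start at 0. Adult cerebellum and olfactory bulb lie below adult cortex and hippocampus, cerebellum library 1 lies lowest at 0.821, and newborn hippocampus lies below the other newborn regions.

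Scores differed between the 4 adult regions at 67 of 107 sites, 62.6%, by limma's moderated F-test with index as block and a Benjamini-Hochberg adjusted p below 0.05. After scaling, 25 sites passed, 23.4%, of which 20 were among the 67. Without cerebellum library 1 the counts were 80 and 39. The median gap between the highest and the lowest region mean was 0.0940, 30 sites had a gap under 0.05, and 10 had one of 0.2 or more. The highest mean was in hippocampus at 55 sites and in cortex at 46, and the lowest was in cerebellum at 97.

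Cerebellum took part in the pairs of regions with the most calls. Of 642 pair and site combinations, 170 passed an adjusted p below 0.05 over all of them, 26.5%, and 65, or 10.1%, after scaling. Cortex and hippocampus differed at 1 site, 0.935%, and cerebellum and olfactory bulb at 4, 3.74%. The fit pools 1 spread per site over the 4 regions. The median SD was 0.00730 in cortex and 0.00852 in hippocampus, but 0.0507 in cerebellum and 0.0229 in olfactory bulb. The count for cortex and hippocampus thus also reflects the spread of the other regions. For pairs with cerebellum the pooled spread draws on regions with smaller SDs, so their p-values may be too small. Hippocampus and cerebellum differed at 67 sites, 62.6%, and cortex and cerebellum at 61, 57%. With 1 library left out these 2 counts ran from 25 to 78 and from 24 to 75, lowest without hippocampus library 2 and cortex library 1. Olfactory bulb differed from cortex at 19 sites, 17.8%, and from hippocampus at 18, 16.8%. Without cerebellum library 1 these last counts were 62 and 66, against 5 to 25 without any other library. By the median over sites, which uses no calls, cerebellum minus olfactory bulb was -0.0378 with all libraries, negative at 101 of 107 sites. Cortex minus olfactory bulb was 0.0357, hippocampus minus olfactory bulb 0.0364 and cortex minus hippocampus -0.000851. The first of these includes cerebellum library 1, with a library median of 0.821. Cerebellum libraries 2 and 3 had 0.914 and 0.906, against 0.907 to 0.933 in olfactory bulb. The median over sites was not computed without cerebellum library 1. After scaling, cortex and hippocampus differed at 1 site, 0.935%, and cerebellum and olfactory bulb at 1. Hippocampus and cerebellum then differed at 22, 20.6%, cortex and cerebellum at 24, 22.4%, cortex and olfactory bulb at 10, 9.35%, and hippocampus and olfactory bulb at 7, 6.54%.

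18S Gm436, the target of SNORD100 in human tables at mouse 18S position 438, had the clearest division. Its score was 0.854, 0.827 and 0.813 in cortex and 0.860, 0.879 and 0.839 in hippocampus. It was 0.275, 0.464 and 0.542 in cerebellum and 0.322, 0.487 and 0.558 in olfactory bulb. The 6 cerebellum and olfactory bulb libraries did not overlap the 6 cortex and hippocampus libraries, and library 1 was the lowest of both cerebellum and olfactory bulb. Hippocampus exceeded cerebellum by 0.432 ± 0.0625 (SE, n = 3 libraries each, limma adjusted p = 0.00987), and cortex exceeded olfactory bulb by 0.376 ± 0.0625 (limma adjusted p = 0.0101). Within these pairs of regions no difference was detected: cortex minus hippocampus was -0.0275 (95% interval -0.170 to 0.115) and cerebellum minus olfactory bulb -0.0284 (-0.171 to 0.114). The difference between hippocampus and cerebellum passed the test under all 35 alternative settings tried, with adjusted p between 0.000187 and 0.0294. Um428, 8 nucleotides upstream and a SNORD68 target in human tables, was between 0.944 and 0.976 in all 12 libraries and did not pass (limma adjusted p = 0.16).

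28S Cm3820 showed the same division at a higher level. Cortex scored 0.973, 0.978 and 0.962 and hippocampus 0.972, 0.965 and 0.959. Cerebellum scored 0.622, 0.773 and 0.806 and olfactory bulb 0.779, 0.795 and 0.841. Neither of the latter overlapped cortex or hippocampus. Cortex exceeded cerebellum by 0.237 ± 0.0381 (SE, n = 3 libraries each, limma adjusted p = 0.00987) and olfactory bulb by 0.166 ± 0.0381 (limma adjusted p = 0.0183). 18S Um799, a SNORD105 target in human tables at mouse position 801, was 0.954, 0.946 and 0.938 in cortex and 0.938, 0.905 and 0.894 in hippocampus. It was 0.717, 0.768 and 0.759 in cerebellum and 0.826, 0.784 and 0.854 in olfactory bulb, all below every cortex and hippocampus library. Cortex minus cerebellum was 0.198 ± 0.0266 (limma adjusted p = 0.00987). For both sites this difference passed under all 35 alternatives.

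**Figure D2:**
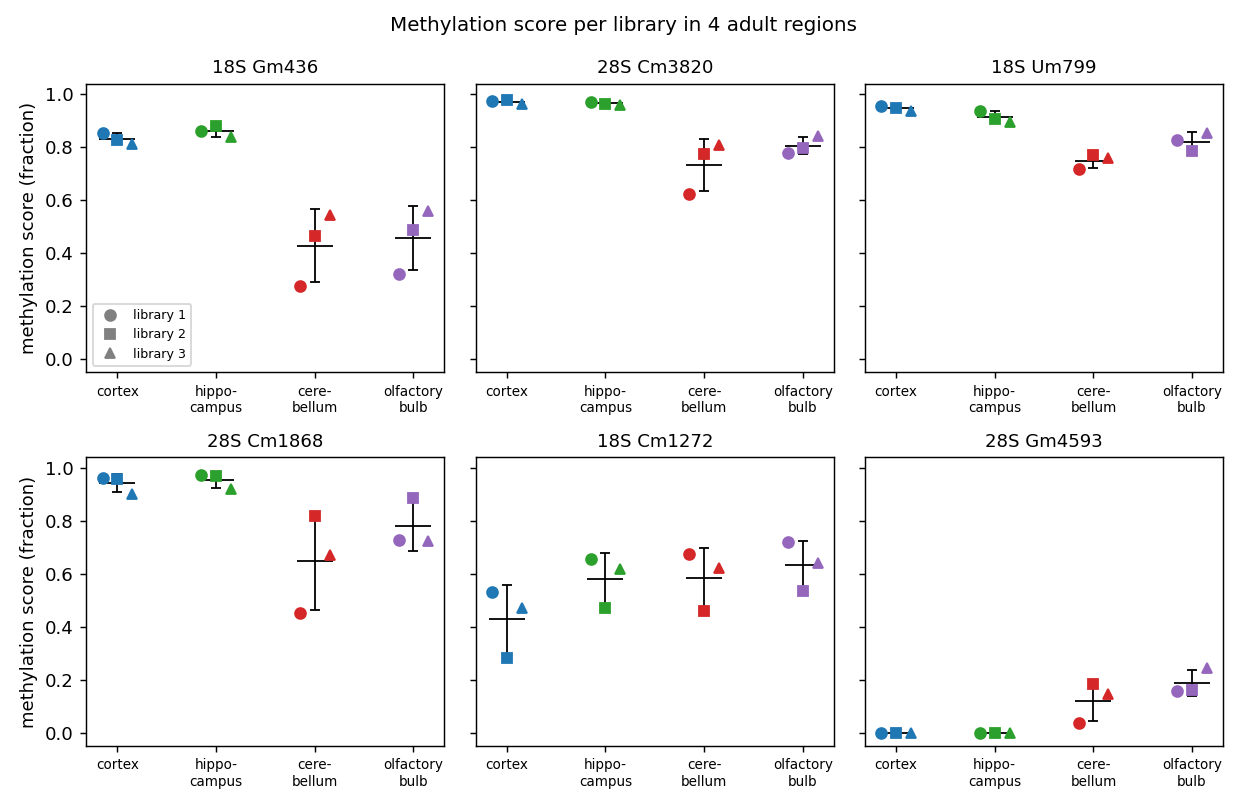
Methylation score (y axis, fraction) of 6 sites in the 12 adult libraries, by region. Symbols mark library numbers, the line the mean and the bar the SD over 3 libraries. At Gm436, Cm3820, Um799 and Cm1868 cortex and hippocampus lie above cerebellum and olfactory bulb, Cm1272 is lowest in cortex within each library number, and Gm4593 is above 0 in cerebellum and olfactory bulb only.

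Other sites with large gaps were led by the low cerebellum score. 28S Cm1868, a SNORD48 target in human tables, was 0.903 to 0.973 in cortex and hippocampus. It was 0.729, 0.886 and 0.724 in olfactory bulb and 0.451, 0.818 and 0.672 in cerebellum, so cerebellum and olfactory bulb overlapped. Cerebellum was 0.245 ± 0.0540 below the mean of the other regions (difference -0.245, limma adjusted p = 0.00822). 18S Am668, a SNORD36 target in human tables, was 0.818, 0.794 and 0.703 in cortex and 0.802, 0.703 and 0.761 in hippocampus. Olfactory bulb scored 0.711, 0.632 and 0.592 and cerebellum 0.496, 0.580 and 0.446. No cerebellum library reached the lowest olfactory bulb library, and the difference of these regions was -0.138 ± 0.0427 (limma adjusted p = 0.0447), or -0.135 after scaling (adjusted p = 0.0941). 28S Gm4588, 28S Cm2352 and 18S Cm517 (the last 2 guided by SNORD24 and SNORD56 in human tables) had cerebellum means of 0.750, 0.795 and 0.716 against highest region means of 0.941, 0.974 and 0.899. All 3 passed the F-test as deposited (limma adjusted p = 0.00863, 0.0140 and 0.0116) and after scaling (0.0224, 0.0251 and 0.0251). 18S Cm174, a SNORD45C target, and 28S Um2402 passed as deposited (limma adjusted p = 0.044 and 0.027) but not after scaling (0.106 and 0.0742). In cerebellum library 1 these scored 0.522 and 0.631, against 0.801 to 0.902 in the other cerebellum libraries.

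28S Gm4593, a SNORD78 target in human tables at mouse position 4276, ran against the general level. It was listed at 0 in all 6 cortex and hippocampus libraries. It scored 0.155, 0.162 and 0.242 in olfactory bulb and 0.0346, 0.182 and 0.145 in cerebellum. Every library of these regions was above 0, but most scores lay near the mean score outside the catalogue, 0.134 to 0.157, and that of cerebellum library 1 lay below it. Olfactory bulb minus cortex was 0.186 ± 0.0319 (SE, n = 3 libraries each, limma adjusted p = 0.0101), and cerebellum minus cortex was 0.121 on the same scale (cortex minus cerebellum -0.121, limma adjusted p = 0.0269). This was the 1 site called higher in olfactory bulb than in the mean of the other regions, 0.935%, and none was called lower by limma as deposited, 0%, or after scaling. As deposited 19 sites had an unadjusted p below 0.05 in either direction, and edgeR called 2 higher and 25 lower. At Gm4593 the contrast with the other regions lost its call under 17 of 35 alternatives. These included no replicate block, leaving out any olfactory bulb library, and leaving out some libraries of each other region. Olfactory bulb against cortex kept its call under all 35 alternatives.

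The neighbours of Gm4593 bear on its zeros, because values below 0 are set to 0 and because Gm4588 and Um4590 lie within its window. Before this step the read-end count at the site over its neighbour mean was 1.08, 1.12 and 1.06 in cortex and 1.05, 1.06 and 1.02 in hippocampus. It was 0.845, 0.838 and 0.758 in olfactory bulb and 0.965, 0.818 and 0.855 in cerebellum. When the protected catalogue sites were left out of the neighbours, scores became 0.0820, 0.0444 and 0.0944 in cortex and 0.106, 0.0952 and 0.127 in hippocampus. They became 0.16, 0.30 and 0.249 in cerebellum and 0.275, 0.284 and 0.341 in olfactory bulb, above the background mean, while those of cortex and hippocampus lay below it. That mean was computed with all neighbours. The order of the regions held, and cerebellum and olfactory bulb still did not overlap cortex and hippocampus, with olfactory bulb minus cortex at 0.227. A listed 0 in cortex and hippocampus is thus set by the formula and by itself does not measure an absence of methylation. Scores below the background mean, in turn, do not show that methylation was present. 28S Gm4607, a SNORD121 target in human tables in the same stretch, did not follow Gm4593: it was highest in hippocampus, at 0.804, 0.791 and 0.859, and lowest in cerebellum, at 0.584, 0.663 and 0.703.

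Cortex and hippocampus had like levels, and 18S Cm1272 was the site that limma called between them. Cm1272, a SNORD66 target in human tables at mouse position 1274, scored 0.531, 0.282 and 0.470 in cortex and 0.655, 0.472 and 0.617 in hippocampus. It scored 0.675, 0.458 and 0.624 in cerebellum and 0.721, 0.536 and 0.641 in olfactory bulb. Library 2 was the lowest of every region, and within each library number cortex was the lowest region. Cortex minus hippocampus was -0.154 ± 0.0297 (SE, n = 3 libraries each, limma adjusted p = 0.0118) with index as block and -0.157 after scaling (adjusted p = 0.0295). With 1 library left out, limma called 1 to 3 sites for this pair as deposited, Cm1272 each time. After scaling it then called 0 to 3, and 0 in most cases, with 1 or 2 sites at an unadjusted p below 0.05. Median scaling with all libraries gave 0 calls, with 3 such sites. Cortex was also below cerebellum (-0.158, limma adjusted p = 0.0114) and olfactory bulb (-0.205, adjusted p = 0.00987). Without the block no site was called between cortex and hippocampus by limma, and none had an unadjusted p below 0.05; edgeR called 5. The hippocampus, cerebellum and olfactory bulb means of 0.581, 0.586 and 0.633 did not differ from each other beyond their error, with limma adjusted p between 0.206 and 0.946. 28S Gm4607 came next, with cortex 0.0797 below hippocampus (-0.0797, 95% interval -0.148 to -0.0115), and did not pass (limma adjusted p = 0.0757).

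Without cerebellum library 1 the levels of cerebellum and olfactory bulb were nearer, but not equal. Library medians were then 0.914 and 0.906 in cerebellum against 0.907, 0.926 and 0.933 in olfactory bulb. Most differences as deposited were still negative, and the part of the level in the calls was not tested. All 12 libraries gave 4 calls, each lower in cerebellum: 18S Am668, 28S Gm2411, 28S Um2824 and 28S Am3703. The count rested on single libraries: limma called 24 without cerebellum library 2, none without cerebellum library 3, olfactory bulb library 2 or hippocampus library 2 (26, 13 and 13 at an unadjusted p below 0.05), 2 without olfactory bulb library 1, and 1 without any of the other libraries of cortex, hippocampus or olfactory bulb. With all libraries edgeR called 12. Without cerebellum library 1, 7 sites were called, again each lower in cerebellum, and 3 were shared with the 4. Gm2411 was 0.890 and 0.869 in cerebellum libraries 2 and 3, 0.737 in library 1, and 0.915, 0.941 and 0.936 in olfactory bulb. Without library 1 its difference was -0.0545 ± 0.0128 (limma adjusted p = 0.0107). Um2824, a SNORD34 target in human tables, was 0.831, 0.890 and 0.864 in cerebellum and 0.908, 0.941 and 0.937 in olfactory bulb. Its difference was -0.0670 ± 0.0173 with all libraries (limma adjusted p = 0.0252), -0.0530 without library 1 and -0.0521 after scaling, each past the threshold. The other calls without library 1 were 28S Am3804, 28S Am3703, 28S Cm4426, 28S Am3764 and 28S Cm2409, with differences from -0.0999 to -0.0166. After scaling as well, Gm2411 and Um2824 were called. These names, and Gm4607 above, were picked after their values were seen.

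28S Cm2409, a neighbour of Gm2411, held 1 library at 0. It scored 0.937, 0.929 and 0.893 in cortex and 0.969, 0.966 and 0.955 in hippocampus. Olfactory bulb scored 0.756, 0.851 and 0.889, and cerebellum 0, 0.738 and 0.743. In cerebellum library 1 the position held 3209 read ends against 907 and 466 in the other cerebellum libraries, at neighbour means of 2865, 3468 and 1813. Cerebellum minus the other regions was -0.411 ± 0.118 (limma adjusted p = 0.0144), but the F-test did not pass (0.0626). Without library 1 the difference was -0.173 (limma adjusted p = 0.00327), and the other cerebellum libraries still lay below every library of the other regions. Its gap of 0.470, the widest of all tested sites, includes that library.

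Against the mean of the other 3 regions, cerebellum was lower at 87 of 107 sites, 81.3%, and higher at none, 0%, by limma (94 sites in either direction had an unadjusted p below 0.05, and edgeR called 94 lower and 1 higher). The median difference was -0.0679. Cerebellum had the largest median SD of the regions, 0.0507, and the pooled spread draws on regions with smaller ones. Its p-values may therefore be too small. By nucleotide, lower sites were 25 of 34 methylated adenosines, 16 of 20 uridines, 19 of 24 cytidines and 27 of 29 guanosines, with median differences of -0.0355, -0.0564, -0.0900 and -0.0788. In the other regions the medians by nucleotide were nearest to 0 at adenosines or uridines. They were 0.0173 for adenosines against 0.050 for guanosines in cortex, and 0.0238 against 0.0580 in hippocampus. The differences of all regions from the others sum to 0 at each site, so these values partly mirror cerebellum and add no separate support. Adenosine sites also scored nearest the upper limit, with a cortex median of 0.976 against 0.950 for guanosines. Adenosine sites such as 28S Am2802, a SNORD95 target in human tables, stayed at 0.972, 0.983 and 0.972 in cerebellum beside 0.975 to 0.987 in cortex and hippocampus. A single factor per library, as used in the scaling, thus moves such sites above cortex.

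After scaling, cerebellum was lower at 30 sites, 28%, and higher at 14, 13.1%. With the library median in place of the upper quartile it was lower at 14 and higher at 26. Of the 14 sites called higher after scaling, 9 were adenosines, among them Am2802, 28S Am1521 and 18S Am1031, and 9 of the 14 had been called lower as deposited. For these sites the direction depends on the scaling. Sites called lower on both scales included the named sites 18S Gm436, 28S Cm1868, 18S Am668, 28S Cm3820 and 18S Um799, with scaled differences of -0.280, -0.229, -0.204, -0.157 and -0.120.

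**Figure D3:**
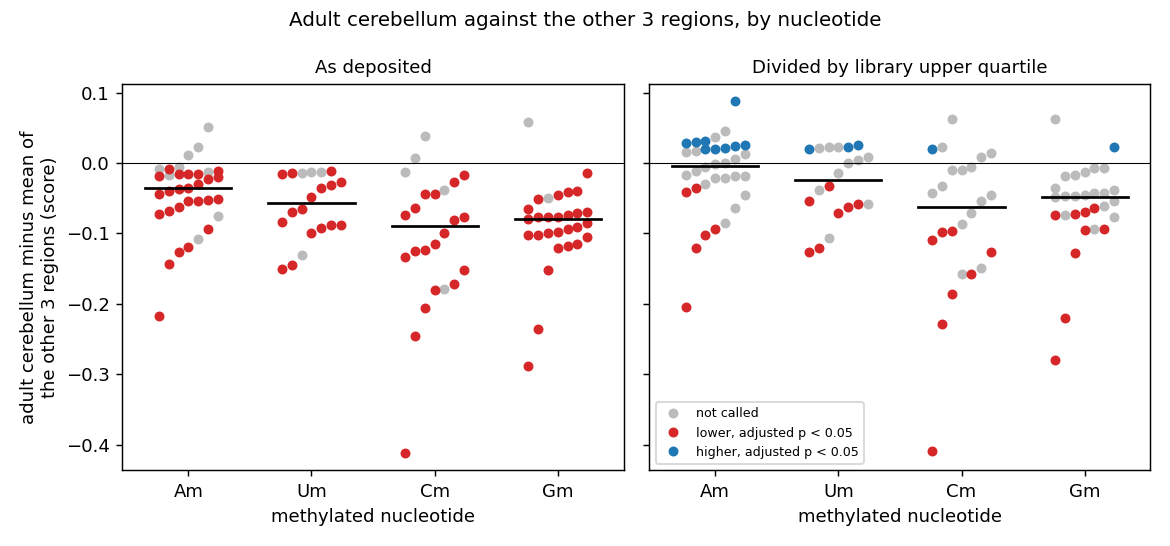
Adult cerebellum minus the mean of the other 3 regions (y axis, score) for each tested site, grouped by methylated nucleotide, as deposited (left) and after division by the library upper quartile (right). Each point is 1 site, the line is the median of its group, and colours give limma calls. As deposited the points lie mostly below 0, lowest for cytidines and guanosines, and after scaling 14 sites lie above 0 with a call.

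Cortex was higher than the mean of the other regions at 16 sites, 15%, and lower at 2, 1.87%, the latter 18S Cm1272 and 28S Gm4593. Hippocampus was higher at 12 sites, 11.2%, and lower at 1, 0.935%, which was Gm4593. After scaling, cortex was higher at 4 sites, 3.74% (18S Gm436, 28S Cm3820, 18S Um799 and 28S Gm1612), and lower at 4, 3.74% (Cm1272, Gm4593, 28S Am2802 and 18S Um1442), while hippocampus was higher at Gm436 only, 0.935%. These counts rested on few libraries. Without any 1 of the 3 cortex libraries limma called no site for cortex, with 21, 36 and 33 sites at an unadjusted p below 0.05, and without cerebellum library 1 it called 59. Without any 1 hippocampus library it called none for hippocampus, with 17, 38 and 35 at an unadjusted p below 0.05, and without cerebellum library 1 it called 69.

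The lower cerebellum scores were spread over the rRNAs near the share of all sites, 81.3%. Cerebellum was lower at 35 of 41 tested 18S sites, 85.4%, 51 of 64 28S sites, 79.7%, and 1 of 2 5.8S sites, with median differences of -0.0712, -0.0633 and -0.0448 beside -0.0679 over all. Among stretches of sites, 18S Um354 to Um627, which holds Gm436 and 14 of the 107 tested sites, had 6 of the 16 sites called higher in cortex and 5 of the 25 sites that differed after scaling. The stretch from 18S Cm1272 to Gm1490 had 8 of 9 sites lower in cerebellum as deposited, 88.9%, and after scaling none lower and 2 higher. The 28S stretch from Cm2338 to Gm2411 had the lowest cerebellum median difference, -0.0996, with 6 of 7 sites lower, 85.7%. The shares of 88.9% and 85.7% as deposited too lie near that of all sites, 81.3%. The other counts stand beside shares of all sites of 15% higher in cortex and 23.4% differing after scaling. For cerebellum after scaling these shares were 28% lower and 13.1% higher. No test of a stretch against all sites was run.

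Sites of interest from other tissues of the same series were mostly high in all 4 adult regions. 18S Um354, a SNORD90 target in human tables, was 0.976 to 0.984 in cortex and hippocampus, 0.950 to 0.960 in olfactory bulb and 0.906, 0.959 and 0.948 in cerebellum, and its F-test passed as deposited (limma adjusted p = 0.0245) but not after scaling (0.971). 28S Um3904, the target of SNORD52, was 0.944 to 0.983 in cortex and hippocampus, 0.90 to 0.928 in olfactory bulb and 0.773, 0.928 and 0.850 in cerebellum (limma adjusted p = 0.0245, scaled 0.0857). 18S Gm867 and 18S Gm1447, targets of SNORD98 and SNORD127 in human tables, had their highest means in hippocampus, 0.960 and 0.929, and their lowest in cerebellum, 0.853 and 0.832, and also passed only as deposited (limma adjusted p = 0.044 and 0.0344). 28S Um4197 differed by little, from 0.972 in cortex to 0.953 in cerebellum (limma adjusted p = 0.0286), and after scaling cortex minus cerebellum turned from 0.0191 to -0.0254 (adjusted p = 0.125 for the F-test).

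18S Am576, a SNORD93 target in human tables, was partly methylated everywhere, with a mean of 0.552 ± 0.132 in cortex and 0.570 ± 0.117 in hippocampus (SD, n = 3). Cerebellum had 0.638 ± 0.0745 and olfactory bulb 0.726 ± 0.0989. Its libraries overlapped between all regions and the F-test did not pass (limma adjusted p = 0.195). 5.8S Um14 and 5.8S Gm75, targets of SNORD71 and SNORD96 in human tables, had means between 0.883 and 0.939 and between 0.882 and 0.975 and did not pass (limma adjusted p = 0.0774 and 0.0657). The other SNORD68 target, 28S Am2388, was 0.808, 0.962 and 0.948 in cerebellum and 0.912 to 0.986 elsewhere, and did not pass either (limma adjusted p = 0.138). 18S Um1668 was at 0 in every library and was not tested.

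The regional order of the adult was not that of the newborn. The region by age interaction over hippocampus, cerebellum and olfactory bulb passed at 84 of 107 sites, 78.5%, as deposited and at 48, 44.9%, after scaling, by limma with index as block. The general level moved with this. The median score over libraries was 0.903 to 0.905 in newborn hippocampus and 0.938 to 0.962 in newborn cerebellum and olfactory bulb, so hippocampus was the lowest of the 3 regions, whereas it was the highest in the adult. Olfactory bulb was above cerebellum in the median of region means at both ages. Adult minus newborn means were positive at 98 sites in hippocampus (median 0.0507) and negative at 95 in cerebellum (median -0.0652) and at 84 in olfactory bulb (median -0.0290). Age and library number cannot be told apart here, and beyond the scaling the part of the level in the interaction was not tested.

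18S Gm436 was 0.406, 0.292 and 0.431 in newborn hippocampus, 0.608, 0.526 and 0.595 in newborn cerebellum and 0.651, 0.601 and 0.60 in newborn olfactory bulb. Newborn hippocampus was thus the lowest of the 3 regions and adult hippocampus the highest (interaction, limma adjusted p = 8.45e-05, scaled 0.000359). 28S Cm3820 turned in the same way, at 0.789, 0.713 and 0.755 in newborn hippocampus and 0.958 to 0.977 in the other newborn libraries (limma adjusted p = 4.88e-05). At Cm3820 the lower scores fell in the samples with a low general level: adult cerebellum, adult olfactory bulb and newborn hippocampus. At Gm436 the lower scores within each age also fell in these samples. Newborn cerebellum and olfactory bulb, with high levels, were below every adult cortex and hippocampus library as well. That comparison is across ages, which cannot be told apart from library number. The part of the level at either site was not tested. 28S Gm4593 was 0.599, 0.526 and 0.618 in newborn hippocampus, 0.508, 0.475 and 0.488 in newborn cerebellum and 0.452, 0.415 and 0.439 in newborn olfactory bulb, above every adult library. Its order also reversed, with hippocampus highest in the newborn and lowest in the adult (limma adjusted p = 0.000561, scaled 0.000742). The adult hippocampus scores were all cut at 0, so these p-values rest in part on such values. Within each age the higher Gm4593 scores fell in the samples with a low general level, and the part of the level was not tested. 18S Cm1272 did not pass the interaction (limma adjusted p = 0.0913), which left out cortex.

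**Figure D4:**
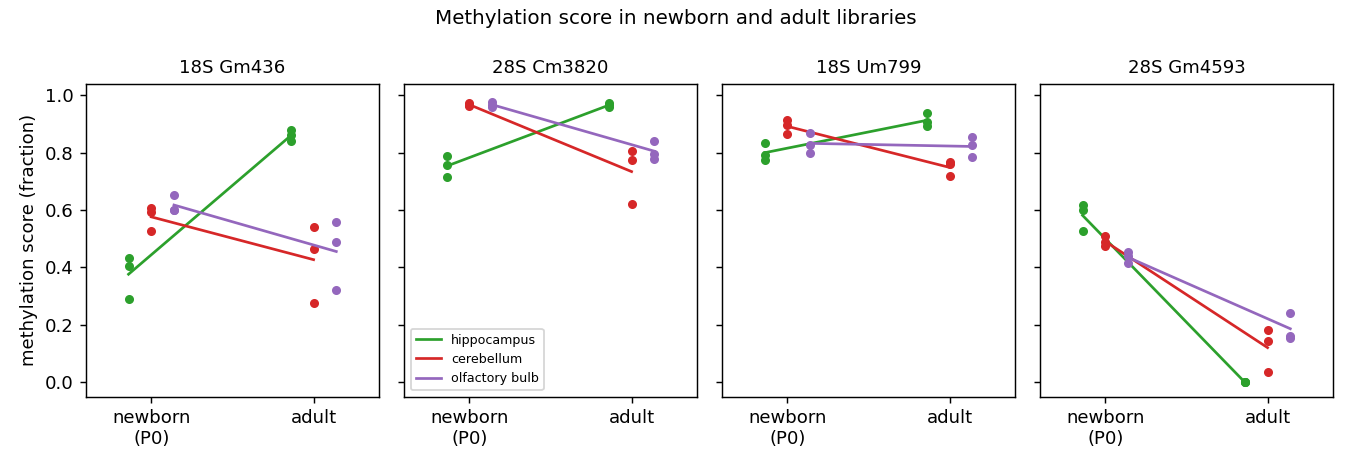
Methylation score (y axis, fraction) of 4 sites in newborn and adult hippocampus, cerebellum and olfactory bulb. Points are libraries (n = 3 each) and lines join the means. Hippocampus goes from the lowest to the highest region at Gm436 and from the highest to the lowest at Gm4593.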

How the data were processed

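Total RNA was extracted, fragmented in alkali and sequenced on an Ion Proton as RiboMeth-seq libraries, per the labels' protocols. No aligner, counting program or build is named in the sources used here. The authors deposited raw counts of read ends per rRNA position and library, and a methylation score as a fraction from 0 to 1, which per the file headers is called a percentage. Recomputed from the counts, the score is 1 minus the count over a mean of 6 neighbours each side with weights from 1 to 0.5, negative values set to 0. It differed from the deposited fraction by at most 5e-13 over 4536 values.

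The catalogue of 108 sites was written from general knowledge and placed by nucleotide and score pattern. A site was tested if its mean over mouse libraries was at least 0.2 and its neighbours averaged at least 50 read ends in every mouse sample, which kept 107. Neighbour means were at least 301 in the adult libraries. The median counting error was 0.00241 to 0.00965, against a median SD between libraries of 0.0177 (0.00730 in cortex, 0.00852 in hippocampus, 0.0507 in cerebellum, 0.0229 in olfactory bulb). Reads carry no molecular identifiers, so that error covers counting only. Since nothing beyond the word triplicates says that libraries came from separate animals, p-values may measure technical spread.

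Scores were fitted with limma 3.58.1 (R 4.3.3), trended prior, index as block, and Benjamini-Hochberg adjustment over sites, or over sites and pairs. The fit of the adult regions used a spread per site pooled over all of them, so each SE of a pair draws on every region. The block rests on a pairing by index: deviations from the region mean correlated above 0.1 in 18 of 18 same-index pairs of adult libraries (0.280 to 0.934, median 0.674). The median over different indexes was -0.396. It adds no separate support, since the deviations of a region cancel out at each site. The region by age fit also took index as block across newborn and adult libraries, for which the pairing was not checked. Alternatives were no block, upper-quartile and median scaling, an arcsine scale, 2 neighbours, no minimum, no trend, edgeR 4.0.16 on the counts, and leaving out each library. Scaling combined with no block, no trend or a left-out library, and neighbours without other sites, were added after the data were seen. Named sites were the 12 with the widest gap among those past the F-test, up to 3 for each region called on both scales, and 12 sites that earlier results of this series made of interest. The members, site lists and tests were chosen with earlier results of these data known. The fit was tested on simulated scores with 20 sites lowered in cerebellum, equal spread in every region and independent noise between sites. It recovered 38.5%, 70.2% and 94.5% of changes of 0.05, 0.1 and 0.2, and 6.67%, 6.95% and 3.57% of its calls were false. The simulation cannot speak to the unequal spread of the regions or to shifts of a whole library.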

Additional observations from a re-analysis of the deposited data

Results flagged for a closer look

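At 12 of the named sites the regional differences of hippocampus, cerebellum and olfactory bulb were not the same in newborn and adult libraries, by limma's region by age interaction as deposited and after scaling. Of all 107 tested sites 43, 40.2%, passed on both scales, and of the 23 named sites 12, 52.2%. As deposited the shares were 78.5% and 78.3%. Many named sites were picked for wide gaps or calls on both scales in the adult libraries, which also enter the interaction. The others came from earlier results of this series. The share among named sites thus depends on how they were picked, and no conclusion is drawn from its difference from that of all sites. The adjusted p as deposited was 8.45e-05 at 18S Gm436, 4.88e-05 at 28S Cm3820, 0.000325 at 18S Um799, 0.000561 at 28S Gm4593 and 0.000786 at 18S Am668. It was 0.00185 at 28S Cm2352, 0.00218 at 18S Cm517, 0.00287 at 28S Gm4588, 0.00378 at 28S Cm1868 and 0.00258 at 28S Um3904. At Am668 the newborn means of hippocampus, cerebellum and olfactory bulb were 0.756, 0.797 and 0.786, against 0.756, 0.507 and 0.645 in the adult. At 18S Um354 (0.00164) the newborn means were 0.727, 0.695 and 0.817 in the same order, against 0.982, 0.938 and 0.956 in the adult. At 5.8S Um14 (0.000454) they were 0.650, 0.787 and 0.792, against 0.939, 0.901 and 0.883, so hippocampus was the lowest newborn and the highest adult region.

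Outside the catalogue, 2 positions of 28S rRNA scored above 0.9 in all 12 adult libraries. G2122 lies between Am2350 and Cm2352 and had scores from 0.9715 to 0.992. G3451 lies 7 nucleotides downstream of Am3764 and had scores from 0.9222 to 0.988, with region means of 0.9475 for cerebellum and 0.9604 for olfactory bulb against 0.9835 for cortex and 0.9848 for hippocampus. The mean score outside the catalogue was 0.134 to 0.157. At 50 positions outside the catalogue all adult libraries scored at least 0.5. No unmethylated control RNA was analysed here, so these are scores only.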

How the results depend on the processing

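Scaling, single libraries and the choice of test moved the counts of sites, and the cause was not tested. For any region difference (67 sites), upper-quartile scaling gave 25, scaling with no replicate block 13, scaling with no trend 21, and median scaling 5. For cortex against the other regions (18), no replicate block gave 5, the same 3 scaled settings 8, 3 and 6, median scaling 4, the arcsine scale 48 and edgeR 60. For hippocampus (13) they gave 0, then 1, 0 and 4, then 0, 56 and 79. For cerebellum (87), the 3 scaled settings gave 44, 23 and 40, and median scaling 40. For olfactory bulb (1), no replicate block gave 0, the arcsine scale 9, no trend 7, edgeR 27, neighbours without other sites 2, scaling with no replicate block 0 and scaling with no trend 5. For region pairs (170), no replicate block gave 113, the 3 scaled settings 65, 35 and 54, median scaling 12, the arcsine scale 262 and edgeR 336. For region by age (84), the 3 scaled settings gave 48, 33 and 44, and median scaling 47. The scaled combinations and the neighbours without other sites were chosen after seeing the data. Where limma with no replicate block called 0, hippocampus had 42 sites and olfactory bulb 10 at an unadjusted p below 0.05. Left-out libraries with a count of 0 left 16 to 36 such sites for cortex, 8 to 38 for hippocampus and 7 to 16 for olfactory bulb. With 1 library left out, counts as deposited and scaled ran from 46 to 80 and 11 to 39 for any difference, 0 to 59 and 0 to 31 for cortex, 0 to 69 and 0 to 23 for hippocampus, 69 to 90 and 23 to 49 for cerebellum, 0 to 23 and 0 to 15 for olfactory bulb, and 81 to 285 and 21 to 120 for pairs. The highest count as deposited came without cerebellum library 1 for all of these but cerebellum. The permutation p of the library level (0.00694) became 0.0833 without replicate 1 or 2 and 0.0417 without replicate 3, the smallest possible with 2 libraries a region.

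Over the 31 named differences and 35 alternatives, 798 of 1085 values kept direction and side of the threshold, 253 lost the call, 16 gained it and 18 changed sign. The changes of sign were those of 28S Um4197 cortex minus cerebellum, -0.0254 with upper-quartile scaling (with or without block or trend), -0.0774 with median scaling and -0.0359 to 0.0208 over the left-out libraries, and of 18S Um354 hippocampus minus cerebellum, -0.0481 with median scaling and from -0.00482 to 0.0548 over the left-out libraries. The median counting error of a library was 0.00241 to 0.00965, beside a median SD between libraries of 0.0177 over the regions, but of 0.00730 in cortex and 0.00852 in hippocampus.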
